A study of Homo sapiens with 5 samples.

Results

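The unfolded protein response and the integrated stress response were followed through 35 genes, of 19936 in the files, found by the Ensembl ID of their current symbol. All 35 were in the files. They were divided by known role into 12 genes of chaperones and degradation in the endoplasmic reticulum (ER), 9 genes of amino acid synthesis, transport and one-carbon metabolism, 7 transcription factors, and 7 effectors and feedback genes. The libraries came from LX-2, a human cell line of immortal hepatic stellate cells, which lay down scar matrix in the liver. RNA was taken 48 h after transfection with a control siRNA (2 libraries) or with siRNA against LIX1L (3 libraries), and no other treatment is named in the labels. The sources used here give neither the sequence nor the number of the siRNAs, so it is not known whether the 3 siLIX1L libraries share 1 duplex. The comparison asks how transcripts of these stress pathways differed with less LIX1L, a predicted double-stranded RNA-binding protein.

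Both responses slow the making of new protein and raise a set of rescue genes. Misfolded protein in the ER activates the sensors ATF6 and IRE1, the second of which splices the mRNA of XBP1, and cleaved ATF6 and spliced XBP1 induce chaperones and degradation factors of the ER. The third ER sensor, PERK, phosphorylates the translation factor eIF2, as GCN2 does when amino acids are short, PKR on double-stranded RNA and HRI on heme or mitochondrial stress. Phosphorylated eIF2 favours the translation of ATF4, which induces genes of amino acid supply and of feedback. Stellate cells secrete much collagen and are known to load their ER heavily.

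Sequence elements of these factors were searched for in RefSeq promoters (GRCh38.p14, 250 bases before to 50 after the start), of which 32 of the 35 genes had an entry; PSPH, SHMT2 and SLC7A11 did not. The matches are shown because the results set apart the ATF4 targets and the ER chaperone genes. Each line is 30 bases on the strand of the gene, with the element in capitals; an element on the other strand is read as its reverse complement. The ATF4 element, TGATGNAA on either strand, was in the ASNS promoter at chr7:97872458-97872487, minus strand, in that of CHAC1 at chr15:40953251-40953280, plus strand, in that of ATF3 at chr1:212565205-212565234, plus strand, and in that of HERPUD1 at chr16:56931955-56931984, plus strand.
ASNS: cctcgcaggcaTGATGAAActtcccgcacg
CHAC1: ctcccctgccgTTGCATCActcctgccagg
ATF3: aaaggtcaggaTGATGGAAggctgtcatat
HERPUD1: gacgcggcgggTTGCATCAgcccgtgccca

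The ER stress element, CCAAT and CCACG with any 9 bases between them, was in the promoters of 4 genes. It stood at chr9:125241386-125241415, minus strand, for HSPA5, at chr22:28800598-28800627, minus strand, for XBP1, and at chr22:49918548-49918577, plus strand, for CRELD2. HSP90B1 held it 2 times, at chr12:103930210-103930239, plus strand, and at chr12:103930315-103930344, plus strand.
HSPA5: ccttcaCCAATCGGCGGCCTCCACGacggg
XBP1: cgctggCCAATCGCGGAGGGCCACGaccgt
CRELD2: acctctCGTGGCGAACTCGGATTGGgccat
HSP90B1: ccctgaCCAATCGGAAGGAGCCACGcttcg
HSP90B1: tgggtgCGTGGTGCGGCGCGATTGGtgggt

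A second ER element, ATTGG and CCACG with a single base between them, was in HERPUD1 at chr16:56932015-56932044, plus strand, and in SDF2L1 at chr22:21642104-21642133, plus strand.
HERPUD1: ccggacgccgATTGGGCCACGttgggagag
SDF2L1: tcctcggaagCGTGGACCAATcaaaaccct

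The ATF4 element was in 5 of the 32 promoters (SLC3A2 is the other gene), against 3.67% of 27305 promoters in the table and 1.70% of the 10589 of genes with enough reads. The ER stress element was in 4 of 32, against 0.0806% and 0.132%, and the second ER element in 2 of 32, against 0.0549% and 0.104%. The element TGACGTGG, bound by XBP1, was in 0 of 32, against 0.795% and 0.925%. HERPUD1 was the only gene of the 32 searched with elements of both kinds, and no element overlapped another. Of the 12 ER genes, 5 held 1 of the ER elements and none of the 6 amino acid genes with an entry did, while the ATF4 element was in genes of all 4 role groups. A match of letters in this window is a description and shows neither binding nor its absence.

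The libraries held 14856104 to 18294056 reads over genes, and levels are given as RPM, reads per 1000000 of these. LIX1L had 26.4 and 35.5 RPM in control 1 and 2 and 6.60, 7.08 and 3.65 RPM in siLIX1L 1, 2 and 3, and fell (limma log2 difference -0.87, SE 0.11, adjusted p = 0.0384). SiLIX1L 1 and 2 differed far less from each other (chi-square per gene 5.38) than any other pair (52.7 or above), and were kept as 2 replicates, as labelled; with them averaged, or without any 1 siLIX1L library, no gene of the whole table passed in limma, so that each limma call of the 3 against 2 libraries given here, LIX1L included, is lost in those fits. The controls differed more from each other (chi-square per gene 115) than control 1 did from any siLIX1L library (89.5 to 99.8). Control 2 differed from every siLIX1L library by more than that (134 to 157). The share of reads on mitochondrially encoded genes was 2.24 and 3.35% in control 1 and 2 and 1.08 to 1.29% after LIX1L siRNA. The stellate markers summed to 2893 and 7547 RPM in control 1 and 2 and to 4453, 4564 and 5293 RPM in siLIX1L 1, 2 and 3, with COL1A1 and VIM high but LRAT at 0 reads and DES below 1 RPM in every library. The hepatocyte markers TTR, ALB and APOA1 were at 0 or 1 read. No marker list of hepatocytes, macrophages or endothelium summed to over 10.5 RPM, apart from the macrophage list in control 2 (37.8 RPM, of which CD14 gave 35.7). The cholangiocyte list summed to 46.4 and 31.4 RPM in control 1 and 2 and to 105, 103 and 53.9 RPM in siLIX1L 1, 2 and 3. Most of this was SOX9 and most of the rest KRT7, with EPCAM and KRT19 at no more than 0.219 RPM. Separate cultures are not named in the labels, so a p-value here measures the spread between the given libraries, which may be technical. In bulk RNA fewer cells of a type and less RNA per cell cannot be told apart.

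After LIX1L siRNA, 1 of the 35 stress genes fell and none rose in limma and in edgeR. This was DDIT4, whose product, REDD1, restrains the growth kinase mTORC1 and which is induced by ATF4, glucocorticoids and low oxygen. DDIT4 (ENSG00000168209, GRCh38 chromosome 10, 72273920 to 72276036, plus strand) had 39.1 and 38.0 RPM in control 1 and 2 and 13.5, 12.4 and 11.5 RPM in siLIX1L 1, 2 and 3. The controls were nearly equal, every siLIX1L library lay below them, and the groups did not overlap. The means were 38.5 ± 0.712 RPM (SD, n = 2) in the controls and 12.5 ± 1.04 RPM (SD, n = 3) after LIX1L siRNA, 3.10-fold lower. The test was run on log2(FPKM + 1), where FPKM is reads per kilobase of gene and per 1000000 reads, and gave a difference of -1.48 (SE 0.15), with a limma adjusted p of 0.0384, and on the recovered reads edgeR gave -1.64 (SE 0.19), adjusted p = 0.0373.

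The test covered 29 of the 35 genes, those that reached 1 FPKM in 2 or more libraries. Over all 6464 genes tested, 1.13% fell and 0.743% rose, so 1 gene of 29 is close to the share in the whole table. The other 6 genes, DNAJC3, ASNS, PSPH, ATF6, ATF3 and VLDLR, lay under that minimum and were tested on the recovered reads only, with edgeR and DESeq2. EdgeR, over 13026 genes of which 0.507% fell and 0.384% rose, covered all 35 and called DDIT4 alone. DESeq2 called 830 of its 13299 genes (6.24%) lower and 843 higher. Of the 35 it gave 5 as lower, namely DDIT4, PHGDH, XBP1, ATF3 and VLDLR, and none as higher. At an unadjusted limma p under 0.05, 7 of the 29 genes were lower and 2, DNAJB9 and ATF5, were higher, against 14.0% and 13.6% of all genes tested.

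The DDIT4 call rested on all 3 siLIX1L libraries. Without siLIX1L 1, 2 or 3 the limma adjusted p was 0.141, 0.230 and 0.0759, and with siLIX1L 1 and 2 averaged it was 0.168, whereas it was 0.0142 and 0.0237 without control 1 and control 2. The share of mitochondrial reads and the level of SOX9 (42.0 and 28.8 RPM in the controls; 104, 102 and 50.7 RPM after LIX1L siRNA) separated the groups too, and their part in this result was not tested. An antisense gene, DDIT4-AS1, overlaps DDIT4, and the use of strand in the counting is not stated, so reads of both cannot be told apart. The same limit holds for all 14 of the stress genes that have an annotated antisense overlap. Besides DDIT4 these are HSP90B1, DNAJB9, PDIA6, CRELD2, EDEM1, SHMT2, MTHFD2, SLC7A11, SLC7A5, ATF5, DDIT3, CEBPB and VLDLR. HERPUD1, DNAJC3, ASNS and DDIT3 overlap annotated genes on their own strand, which the use of strand would not separate.

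The largest differences in these genes lay between the 2 control libraries. Control 1 was the higher for all 9 amino acid genes, and control 2 for 8 of the 12 ER genes, against 45.0% of all genes. Control 1 held at least 2-fold more than control 2 of all 9 amino acid genes, of 5 of the 7 effectors and of 2 of the 7 transcription factors, but of none of the 12 ER genes. Over all 13026 genes with enough reads the share was 8.64%. Control 2 held at least 2-fold more of 2 ER genes, HSP90B1 and SDF2L1, and of none of the genes of the other roles, against 7.85% of all genes. The stellate markers and CD14 were also higher in control 2, and their part in this difference was not tested. Both libraries carry the label of control siRNA, so this compares 2 libraries of 1 group, and the intervals are exact 95% intervals on the read counts that cover counting error only.

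**Figure D1:**
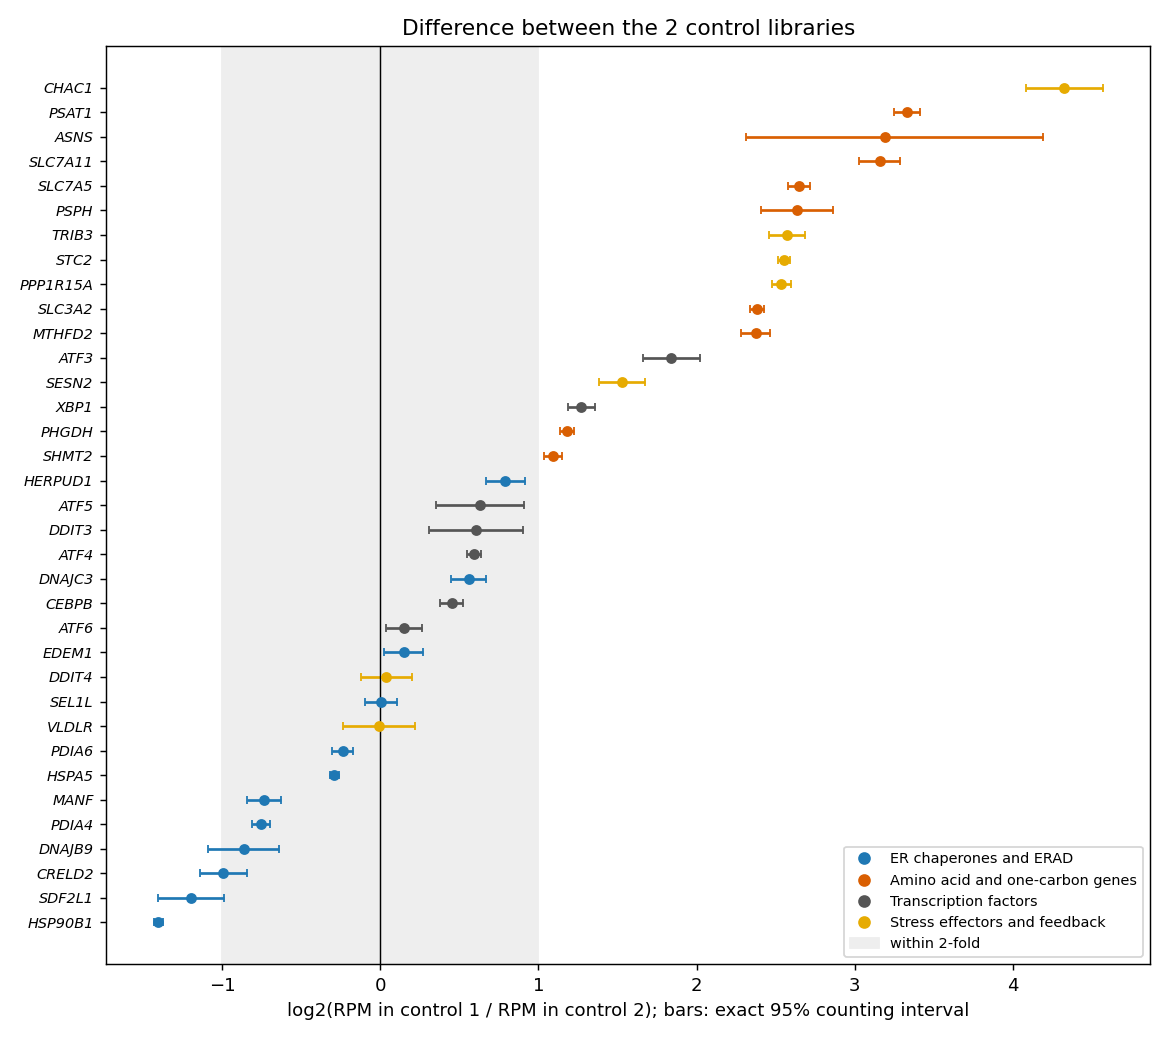
Difference between the control libraries for each of the 35 genes, as log2 of RPM in control 1 over RPM in control 2, with exact 95% counting intervals as bars and colours for the 4 roles; the grey band marks differences within 2-fold. CHAC1 stands at the top (20.0-fold higher in control 1), the 9 amino acid genes all lie to the right of the band, and the 12 ER genes lie inside it or, for HSP90B1 and SDF2L1, to its left.

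Among the serine genes, PSAT1, the aminotransferase of serine synthesis, had 716 and 71.2 RPM in control 1 and 2 and 164, 166 and 209 RPM in siLIX1L 1, 2 and 3. Control 1 was 10.1-fold (9.49 to 10.7) above control 2, and the siLIX1L libraries lay between them, 3.99-fold below control 1 and 2.52-fold above control 2 in their mean. PSPH, the phosphatase of the last step, had 65.5 and 10.5 RPM in the controls and 14.5, 15.1 and 14.1 RPM after LIX1L siRNA. PHGDH, the enzyme of the first step, had 812 and 358 RPM in the controls and 252, 241 and 278 RPM after LIX1L siRNA. PHGDH was the only one of the 9 whose siLIX1L libraries all lay below both controls, a position held by 21.8% of all genes. Its siLIX1L mean was 1.39-fold under control 2 and 3.16-fold under control 1. PHGDH passed in DESeq2 (log2 fold change -1.17 (SE 0.35), adjusted p = 0.0112) and neither in limma (adjusted p = 0.121) nor in edgeR (adjusted p = 0.0849).

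ASNS, asparagine synthetase, a classical ATF4 target, had 89 reads in control 1 and 12 in control 2, and 11, 12 and 19 in siLIX1L 1, 2 and 3. Control 1 was 9.12-fold (4.97 to 18.3) above control 2, a wide interval because the gene was read so little, and the siLIX1L libraries lay close to control 2. Named pseudogenes of ASNS, PSAT1, PSPH, MTHFD2, SLC7A5, XBP1 and ATF4 are annotated, and the handling of reads that fit several copies is not given in these sources, so the levels of these 7 genes are uncertain. In one-carbon metabolism, SHMT2 and MTHFD2 work in turn in mitochondria to move a carbon from serine to folate. SHMT2 had 421 and 198 RPM in the controls and 211, 202 and 258 RPM after LIX1L siRNA. MTHFD2 had 335 and 64.7 RPM in the controls and 116, 103 and 42.8 RPM after LIX1L siRNA. Control 1 was the highest library for both, and siLIX1L 3 held less MTHFD2 than control 2 did, where siLIX1L 1 and 2 held more.

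The 3 transporters showed the same order of controls with different siLIX1L levels. SLC7A11, which imports cystine for glutathione, had 265 and 29.7 RPM in the controls and 203, 226 and 114 RPM after LIX1L siRNA. It was the amino acid gene whose siLIX1L libraries stood nearest control 1, 6.09-fold above control 2 in their mean. SLC7A5, the importer of leucine and other large amino acids, had 713 and 114 RPM in the controls and 179, 182 and 537 RPM after LIX1L siRNA, with siLIX1L 3 near control 1 and the other siLIX1L libraries near control 2. SLC3A2, the partner chain of both importers, had 1495 and 287 RPM in the controls and 421, 399 and 483 RPM after LIX1L siRNA. Between the groups no amino acid gene passed in limma, where 7 of the 9 were tested and adjusted p ran from 0.121 to 0.903. Of these 7, 1 was lower and none higher at an unadjusted limma p under 0.05, against 14.0% and 13.6% of all genes tested. None of the 9 passed in edgeR.

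Of the 7 effectors, 5 shared the pattern of the amino acid genes. CHAC1, an enzyme that degrades glutathione, had 163 and 8.14 RPM in control 1 and 2 and 12.0, 12.2 and 11.6 RPM in siLIX1L 1, 2 and 3. Its level in control 1 was 20.0-fold (17.0 to 23.8) that in control 2, the widest gap of the 35 genes, while the siLIX1L libraries were within 1.05-fold of each other and 1.47-fold above control 2. PPP1R15A, or GADD34, which brings a phosphatase to eIF2 and so ends the response, had 933 and 161 RPM in the controls and 198, 186 and 207 RPM after LIX1L siRNA. STC2, a secreted glycoprotein, had 2188 and 372 RPM in the controls and 886, 881 and 952 RPM after LIX1L siRNA, which put its siLIX1L libraries 2.44-fold above one control and 2.41-fold below the other.

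TRIB3, a pseudokinase that damps ATF4 and AKT, had 243 and 40.8 RPM in the controls and 36.1, 37.5 and 97.2 RPM after LIX1L siRNA, so that only siLIX1L 3 lay between the controls. SESN2, a leucine sensor that restrains mTORC1, had 87.2 and 30.3 RPM in the controls and 36.8, 34.2 and 42.2 RPM after LIX1L siRNA. Control 1 was the highest library for TRIB3 and SESN2. The other 2 effectors, DDIT4 and VLDLR, were level between the controls. VLDLR, a lipoprotein receptor induced through PERK and ATF4, had 19.5 and 19.6 RPM in the controls and 9.09, 9.998 and 10.7 RPM after LIX1L siRNA. It was 1.97-fold lower in the mean with no overlap of the groups and passed in DESeq2 (log2 fold change -0.97 (SE 0.27), adjusted p = 0.00581) but not in edgeR (-0.99 (SE 0.22), adjusted p = 0.0675), and an antisense gene, VLDLR-AS1, overlaps it.

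In 8 of the 12 ER genes control 2 was the higher of the controls. HSP90B1, the ER form of the HSP90 chaperone, had 795 and 2103 RPM in control 1 and 2 and 899.8, 935 and 909 RPM in siLIX1L 1, 2 and 3. Control 2 was 2.65-fold (2.59 to 2.70) above control 1, and the siLIX1L libraries stood just above control 1. SDF2L1, which assists the chaperone HSPA5, had 17.0 and 39.0 RPM in the controls and 25.2, 20.9 and 20.4 RPM after LIX1L siRNA. CRELD2, a secreted protein that ER stress induces, had 35.2 and 70.0 RPM in the controls and 44.8, 43.7 and 40.0 RPM after LIX1L siRNA. In all 3 the siLIX1L libraries lay between the controls with control 2 highest, a position held by 6.55% of all genes.

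HSPA5, or BiP, the main ER chaperone and the one that holds the ER sensors inactive, was high in all libraries. It had 1215 and 1486 RPM in the controls and 1407, 1370.2 and 1150.2 RPM after LIX1L siRNA, with a limma difference of -0.04 (SE 0.21), adjusted p = 0.911. The disulfide isomerase PDIA4 had 251 and 423 RPM in the controls and 285, 288 and 227 RPM after LIX1L siRNA, and its partner PDIA6 ranged from 199 to 247 RPM over the 5 libraries. For these 3 genes the groups overlapped. MANF, a secreted ER protein that protects cells under stress, had 72.7 and 121 RPM in the controls and 52.2, 43.0 and 66.9 RPM after LIX1L siRNA. It was 1.79-fold lower in the mean, the largest such difference of the ER genes, with no overlap of the groups (limma -0.77 (SE 0.27), adjusted p = 0.138).

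HERPUD1 and SEL1L, which serve the ubiquitin ligase of ER degradation, also had every siLIX1L library below both controls. HERPUD1, the ER gene with an ATF4 element, had 86.9 and 50.3 RPM in the controls and 42.4, 46.3 and 46.8 RPM after LIX1L siRNA, and control 1 was 1.73-fold (1.59 to 1.88) above control 2, the largest excess of control 1 in the ER group. SEL1L had 98.1 and 97.7 RPM in the controls and 69.5, 75.0 and 72.1 RPM after LIX1L siRNA. The co-chaperones DNAJB9 and DNAJC3 and the lectin EDEM1 had every siLIX1L library above both controls. Thus 3 of the 12 ER genes lay below both controls and 3 above, near the shares of all genes (21.8% and 22.2%). DNAJB9, or ERdj4, which restrains IRE1, had 16.2 and 29.5 RPM in the controls and 38.2, 35.2 and 43.7 RPM after LIX1L siRNA, 1.71-fold higher in the mean (limma 0.69 (SE 0.23), adjusted p = 0.123). DNAJC3, or p58IPK, an inhibitor of PERK and PKR, had 98.3 and 66.7 RPM in the controls and 105, 112 and 103 RPM after LIX1L siRNA. Control 1 was 1.47-fold (1.37 to 1.59) above control 2 for DNAJC3, the order of the amino acid genes. EDEM1, which marks glycoproteins for degradation, had 67.1 and 60.6 RPM in the controls and 97.3, 88.6 and 72.7 RPM after LIX1L siRNA. No ER gene passed between the groups in limma, edgeR or DESeq2; at an unadjusted limma p under 0.05, of 11 tested, 1 was higher and 2 were lower, near the shares of all genes (13.6% and 14.0%).

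Among the transcription factors, 5 of 7 had all siLIX1L libraries below both controls and the other 2 had them above. Over all genes the shares were 21.8% and 22.2%. ATF4 itself had 619 and 410.2 RPM in control 1 and 2 and 361, 295 and 303 RPM in siLIX1L 1, 2 and 3. Control 1 was 1.51-fold (1.46 to 1.56) above control 2, far less than for most of its targets named above. ATF4 is controlled mainly at translation, which these RNA libraries do not measure, and its part in the difference of those targets was not tested. The means were 515 ± 148 RPM (SD, n = 2) in the controls and 320.0 ± 36.1 RPM (SD, n = 3) after LIX1L siRNA, 1.61-fold lower (limma -0.66 (SE 0.24), adjusted p = 0.148). ATF3, a stress-induced repressor, had 68.0 and 19.0 RPM in the controls and 9.42, 7.42 and 13.1 RPM after LIX1L siRNA. It was 4.35-fold lower in the mean without overlap, and passed in DESeq2 (log2 fold change -2.10 (SE 0.49), adjusted p = 0.000875) but not in edgeR (-2.10 (SE 0.50), adjusted p = 0.0736).

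XBP1, whose spliced form drives ER chaperone genes, had 220.2 and 91.3 RPM in the controls and 63.4, 70.5 and 65.0 RPM after LIX1L siRNA. Control 1 was 2.41-fold (2.27 to 2.56) above control 2, and the 3 siLIX1L libraries lay under both. Control 1 was likewise the higher control in all 7 transcription factors, in all 9 amino acid genes and in 4 of the 12 ER genes. XBP1 was 2.35-fold lower in the mean and passed in DESeq2 (log2 fold change -1.22 (SE 0.36), adjusted p = 0.0118), not in limma (-1.04 (SE 0.34), adjusted p = 0.122) or edgeR (adjusted p = 0.0843); counts per gene do not separate its spliced and unspliced forms. DDIT3, or CHOP, which promotes death under prolonged stress, had 14.5 and 9.51 RPM in the controls and 8.55, 8.67 and 7.92 RPM after LIX1L siRNA, and it overlaps MARS1 on the other strand. CEBPB, a partner of ATF4, had 217 and 159 RPM in the controls and 116, 122 and 146 RPM after LIX1L siRNA. The factors above both controls were ATF6, at 82.5 and 74.3 against 88.2, 92.4 and 98.1 RPM, and ATF5, which guards mitochondrial protein folding, at 16.3 and 10.5 against 23.8, 22.4 and 17.3 RPM. No transcription factor passed in limma or edgeR; of 5 tested in limma, 1 was higher and 3 were lower at an unadjusted p under 0.05 (13.6% and 14.0% of all genes).

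**Figure D2:**
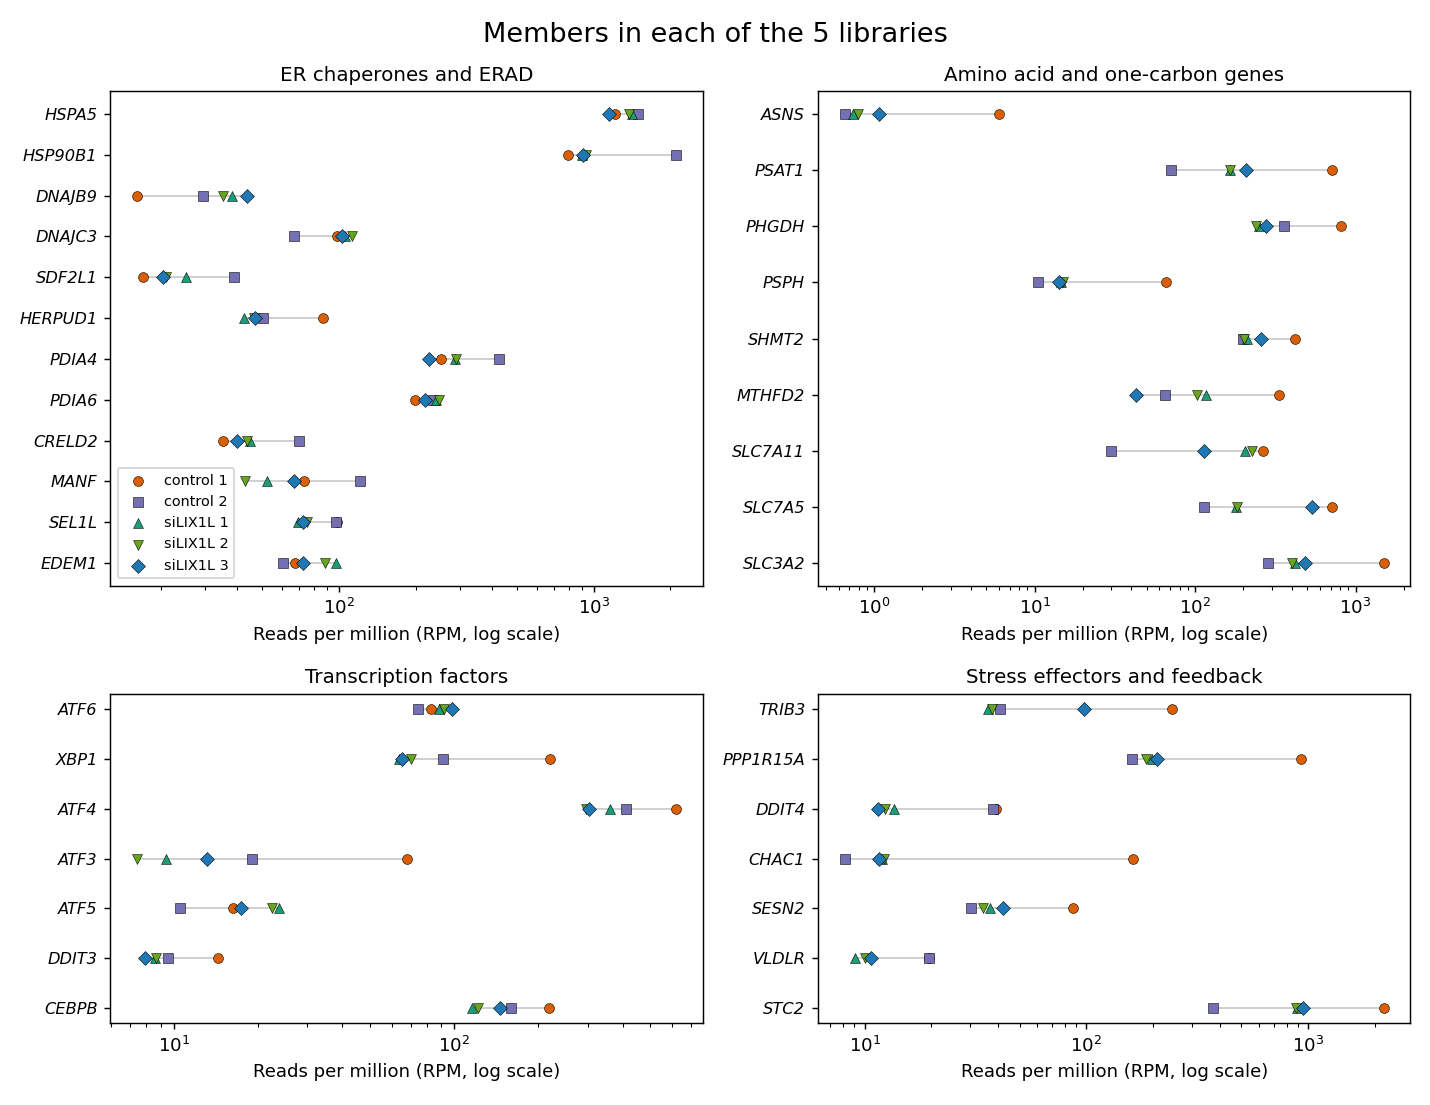
RPM of each of the 35 genes in the 5 libraries on a log axis, in 4 panels by role, with 1 symbol per library and a grey line over their range. In the amino acid panel the orange circle of control 1 is at the right end of every line, and for DDIT4 and VLDLR both control symbols coincide to the right of the 3 siLIX1L symbols.

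Over the 35 genes, the 3 siLIX1L libraries lay below both controls in 11 and above both in 5, against 21.8% and 22.2% of all genes. They lay between the controls with control 1 highest in 11 genes, 7 of the amino acid group and 4 effectors, against 9.17% of all genes, between them with control 2 highest in 3, and overlapped 1 or both controls in 5. The median limma difference was -0.21 over the ER genes, -0.40 over the amino acid genes, -0.54 over the transcription factors and -0.85 over the effectors, against -0.01 over all genes tested. The sign of these medians depended on which control was left out, except over the transcription factors, where it stayed negative. Without control 1 the medians were -0.25, 0.54, -0.32 and 0.25 in the same order, and without control 2 they were 0.19, -1.36, -0.76 and -1.58. In edgeR, which covered all 35, they were -0.35, -1.11, -0.56 and -1.28, against -0.04 over all genes. Per library, log2(RPM + 0.5) of each gene was set against its average over the 5 libraries, and the median of these deviations was 1.55 and -0.79 in control 1 and 2 for the amino acid genes, and -0.28, -0.29 and -0.20 in siLIX1L 1, 2 and 3. For the effectors it was 1.27 and -0.68 in the controls and -0.50, -0.48 and -0.28 after LIX1L siRNA. For the ER genes it was -0.18 and 0.22 in the controls and 0.04, -0.03 and -0.17 after LIX1L siRNA, and for the transcription factors 0.57 and 0.02 against -0.16, -0.28 and -0.26. Over all genes these medians lay between -0.04 and 0.03. In the amino acid genes and effectors the control 1 library stood apart by this measure from the other 4.

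With a single control, the result for these genes therefore depended on which control was used. Without control 1, limma called 5 of the 29 genes higher after LIX1L siRNA, PSAT1, SLC7A11, ATF5, CHAC1 and STC2, and 5 lower, HSP90B1, SDF2L1, CRELD2, MANF and DDIT4, in a fit that called 12.5% of all genes higher and 13.0% lower. Without control 2 it called 1 higher, DNAJB9, and 10 lower, against 1.62% and 3.59% of all genes. The 10 were HERPUD1, PSAT1, PHGDH, SLC3A2, XBP1, PPP1R15A, DDIT4, CHAC1, SESN2 and STC2. PSAT1, CHAC1 and STC2 changed side: without control 1 their limma differences were 1.02, 0.40 and 1.25 (adjusted p = 0.0219, 0.0490 and 0.0148), and without control 2 they were -1.82, -3.43 and -1.26 (adjusted p = 0.0235, 0.00697 and 0.0336). Of all genes tested, 13 changed side in this direction and 6 in the other. DDIT4 was the one gene of the 35 called in the same direction with either control alone. In these fits the lone control is assumed to vary as the siLIX1L libraries do.

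Other genes of the same pathways were taken from lists made by known role. Of 20 cytosolic aminoacyl-tRNA synthetases, which load amino acids on tRNA and many of which ATF4 induces, 12 were at least 2-fold higher in control 1 than in control 2 and none in control 2. Over all genes the shares were 8.64% and 7.85%. GARS1, for glycine, had 579 and 118 RPM in the controls and 213, 205 and 219 RPM after LIX1L siRNA, and of the 3 that were higher in control 2, HARS1 and QARS1, for histidine and glutamine, were 1.76 and 1.72-fold higher in control 2. The median deviation of the 20 was 0.80 in control 1 and -0.22 in control 2. Of 23 other ATF4 targets with enough reads, 16 were at least 2-fold higher in control 1 and 1 in control 2, against the same 8.64% and 7.85%. CEBPG, the partner of ATF4 on many amino acid genes, had 221 and 37.5 RPM in the controls and 64.2, 62.8 and 70.9 RPM after LIX1L siRNA, and ALDH1L2, of mitochondrial folate, 113 and 13.3 against 28.5, 36.8 and 23.4 RPM. The 1 in control 2 was NDRG1, also induced by low oxygen, at 35.2 and 471 RPM in the controls and 75.7, 86.9 and 59.7 RPM after LIX1L siRNA. Of 36 other genes of ER folding, translocation and degradation, 29 were higher in control 2, against 45.0% of all genes. Of the 36, 3 were at least 2-fold higher in control 2 (WFS1, SEC24D and CALR) and none in control 1, against 7.85% and 8.64% of all genes. CALR, the lectin chaperone calreticulin, had 788 and 1601 RPM in the controls and 1046, 1080.3 and 989 RPM after LIX1L siRNA. GARS1, QARS1, CEBPG, ALDH1L2, NDRG1 and CALR were chosen after their values were seen.

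**Figure D3:**
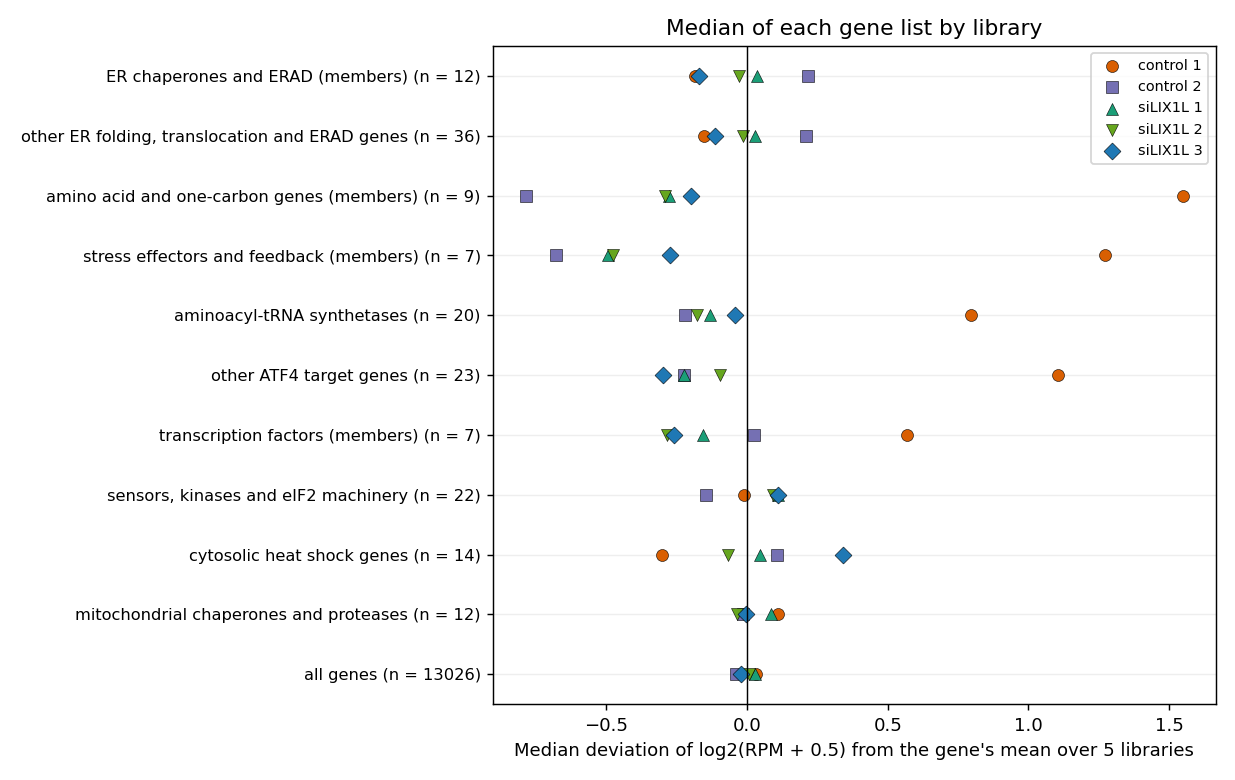
For each library, the median over a gene list of log2(RPM + 0.5) minus the gene's average in the 5 libraries, for 10 gene lists and for all genes, with 1 symbol per library and the number of genes beside each list. Control 1 lies far to the right in the amino acid genes (1.55), effectors (1.27), other ATF4 targets (1.11) and tRNA synthetases (0.80), and left of 0 in both ER lists, where control 2 is the rightmost symbol.

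Between the groups, no tRNA synthetase, no other ATF4 target and no other ER gene passed in limma, of 20, 15 and 30 tested; at an unadjusted limma p under 0.05 there were 0 in the first list, 4 lower in the second, and 5 higher and 3 lower in the third, against 13.6% higher and 14.0% lower of all genes. EdgeR called 1 gene of these lists as lower, against 0.507% of all genes. This was GDF15, a stress hormone induced by ATF4 and CHOP. It had 85.5 and 33.0 RPM in the controls and 7.27, 6.89 and 7.75 RPM in siLIX1L 1, 2 and 3, 8.11-fold lower in the mean with every siLIX1L library far below both controls (edgeR -3.01 (SE 0.37), adjusted p = 0.0373; limma -1.66 (SE 0.29), adjusted p = 0.0502). Next by p among the ATF4 targets came the angiogenic factor VEGFA, at 269 and 141 against 81.6, 91.7 and 71.7 RPM, and the translation repressor EIF4EBP1, at 293 and 116 against 69.9, 58.7 and 78.4 RPM (limma adjusted p = 0.0723 and 0.0939). Among the ER genes HYOU1, a nucleotide exchange factor of HSPA5, had 144 and 142 RPM in the controls and 221, 243 and 250.0 RPM after LIX1L siRNA, and SPCS3, of the signal peptidase, 105 and 159.7 against 402, 431 and 262 RPM (limma adjusted p = 0.0621 and 0.0552). FKBP2, a prolyl isomerase, had 53.2 and 71.9 RPM against 38.3, 30.5 and 34.4 RPM (limma adjusted p = 0.0727). Of the synthetases, CARS1 and HARS1 came near the top by p, with limma adjusted p of 0.1997 and 0.208.

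Among the sensors and the eIF2 machinery, 1 of 18 tested rose and none fell in limma, against 0.743% and 1.13% of all genes tested. EIF2AK2, or PKR, the eIF2 kinase that double-stranded RNA activates and interferon induces, had 112 and 107 RPM in the controls and 257, 348 and 386 RPM in siLIX1L 1, 2 and 3. The controls were alike and every siLIX1L library stood above them, 3.02-fold in the mean (limma 1.20 (SE 0.18), adjusted p = 0.0394; edgeR 1.59 (SE 0.24), adjusted p = 0.0465). EIF2B4, a subunit of the exchange factor of eIF2, had 28.8 and 27.3 against 18.7, 16.7 and 19.2 RPM, and MBTPS1, the protease that cleaves ATF6, 95.6 and 129.8 against 176, 176 and 162 RPM (limma adjusted p = 0.0811 and 0.116). The kinase of the ER branch, EIF2AK3 or PERK, was below the minimum of the limma test at 12.8 and 20.7 against 19.6, 20.6 and 23.3 RPM, and ERN1, which encodes IRE1, was as well at 44.2 and 15.5 against 27.2, 29.1 and 17.1 RPM; both are named after their values were seen. Of 7 tested genes that link the response to cell death, 1 fell and none rose in limma, against 1.13% and 0.743% of all genes tested. This was TXNIP, an inhibitor of thioredoxin, at 675 and 490.4 against 171, 189 and 144 RPM, 3.47-fold lower in the mean (limma -1.76 (SE 0.22), adjusted p = 0.0384). BAX, which opens the outer mitochondrial membrane, had 98.9 and 92.4 against 56.3, 51.4 and 53.4 RPM, and the inflammatory caspase CASP4 90.3 and 79.4 against 120.2, 126 and 125 RPM (limma adjusted p = 0.0526 and 0.103).

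**Figure D4:**
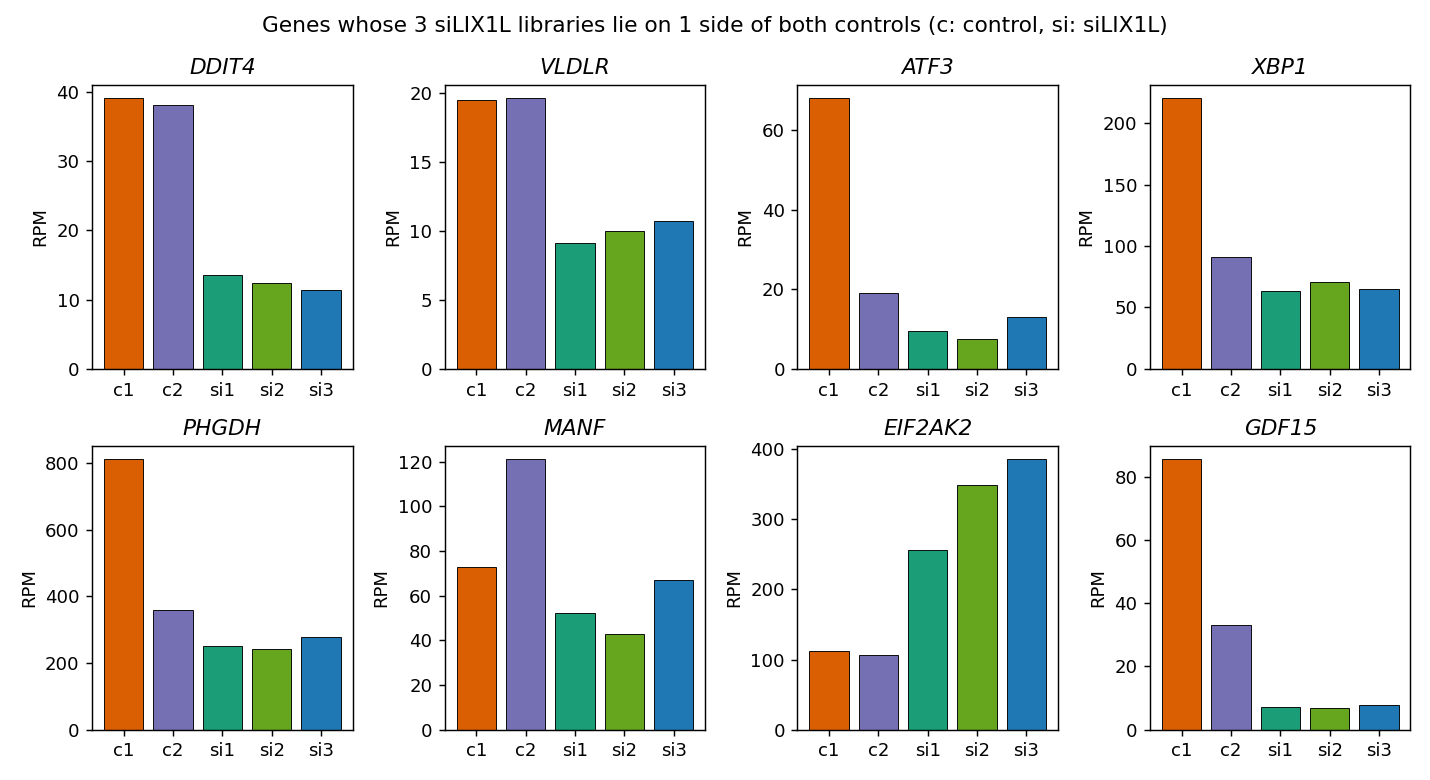
RPM in each library, as bars from 0, for 8 chosen genes whose 3 siLIX1L libraries all lay on 1 side of both controls. Here c is control and si is siLIX1L. Of the 35 genes, 11 lay below both controls and 5 above, against 21.8% and 22.2% of all genes, and the 5 above are not drawn. DDIT4 and VLDLR have equal controls, ATF3, XBP1, PHGDH and GDF15 have control 1 highest, MANF has control 2 highest, and EIF2AK2 is the gene of the 8 that is higher after LIX1L siRNA.

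Chaperones outside the ER were counted for contrast. Of 13 tested cytosolic heat shock genes, 1 rose and none fell in limma, against 0.743% and 1.13% of all genes tested. This was HSPH1, an exchange factor of HSP70, at 272 and 333 RPM in the controls against 578, 607 and 654 RPM. It was 2.03-fold higher in the mean (limma 0.96 (SE 0.17), adjusted p = 0.0482, and edgeR adjusted p = 0.0618). HSPA8, the constitutive HSP70, had 811 and 2498 against 3137, 3074 and 3479 RPM, with control 2 nearer to the siLIX1L libraries than to control 1, and the small chaperone HSPB1 119 and 204 against 75.3, 67.7 and 102 RPM (limma adjusted p = 0.159 and 0.113). None of 12 mitochondrial chaperones and proteases passed in limma or edgeR. At an unadjusted limma p under 0.05, 1 was higher and 1 lower, against 13.6% and 14.0% of all genes. The protease HTRA2 had 28.1 and 35.7 against 15.5, 11.8 and 24.3 RPM, the chaperonin HSPD1 439 and 482 against 600.5, 596 and 658 RPM, and the protease CLPP 84.0 and 83.2 against 72.4, 62.6 and 68.1 RPM. Of 8 tested genes of mTORC1, the kinase that DDIT4 and SESN2 restrain, none passed in limma or edgeR. At an unadjusted limma p under 0.05, 2 were higher and none lower, against 13.6% and 14.0% of all genes. TSC1, through which DDIT4 acts, had 52.8 and 48.3 against 105, 111 and 69.9 RPM, its partner TSC2 111 and 124 against 149, 164 and 146 RPM, and the kinase MTOR 110.0 and 95.8 against 144, 165 and 163 RPM (limma adjusted p = 0.104, 0.204 and 0.127).

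Levels of different genes were compared per kilobase of the longest coding transcript (GENCODE 29), as the mean of the controls in RPM per kb. By this mean HSP90B1 was the highest of the 35 at 507 RPM per kb, followed by SLC3A2 at 401 and HSPA5 at 346 RPM per kb. HSP90B1 stood above 99.6% of the genes with a coding transcript and any read in the 5 libraries, a wider set than edgeR tested. ATF4 stood at 255, STC2 at 239 and PPP1R15A at 230.0 RPM per kb. DDIT4 was at 22.1 and DDIT3 at 11.2 RPM per kb. The lowest were VLDLR at 2.13 and ASNS at 1.41 RPM per kb, the latter above 35.5% of that wider set, which includes genes with very few reads. These means join controls that differ, and the order turned with the control. HSP90B1 was at 736 RPM per kb in control 2, above the other genes of the 35, but at 278 in control 1, where 7 of them stood higher and SLC3A2 was first. SLC3A2 was at 673 RPM per kb in control 1 and 129 in control 2, and HSPA5 at 311 and 380.2.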

How the data were processed

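Libraries were assigned to groups by the siRNA named in their titles. For every library the authors deposited FPKM of 19936 human genes, per the file headers, and with siLIX1L 3 also the read count and length of each gene. Bowtie 0.12.2 and mm8, a mouse build, are what the submitters' processing notes name; human Ensembl IDs do not match that build, so aligner settings, annotation and counting tool are uncertain. For 19567 of 19926 genes (98.2%) the length is the span of the gene in GENCODE 29, introns included, which gives genes with long introns a low FPKM.

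Multiplying FPKM by length gave whole multiples of 1 read for 100% of values (tolerance 0.01 reads), and these reads were those of the deposited count column for all 19936 genes of siLIX1L 3. They served for depth and RPM. A count of 0 allows 3 reads, or 0.164 to 0.202 RPM.

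Groups were tested with limma 3.58.1 in R 4.3.3 on log2(FPKM + 1), a scale that understates changes of low genes. The fit used a trended, robust eBayes step and two-sided p-values adjusted by Benjamini-Hochberg over the 6464 genes that reached 1 FPKM in 2 or more libraries, with a threshold of 0.05. Alternatives were edgeR 4.0.16 (quasi-likelihood) and DESeq2 1.42.0 on the recovered reads, 2 other scalings, no minimum or one of 5 FPKM, a pseudocount of 0.1 FPKM, a block for the replicate number, siLIX1L 1 and 2 averaged, and leaving out each library. The code was tested on simulated data.

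The members, gene lists, tests and alternatives were chosen with earlier results of these data known. Full values are given for members past the threshold in limma or on the read counts and for the 3 of each role with the largest ratio of mean RPM. In each other list, every gene past the limma threshold is named and, with fewer than 3, those of smallest p up to 3; other named genes are additions. A gene that the rule names is not reported here.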

Additional observations from a re-analysis of the deposited data

How the results depend on the processing

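In other settings than a left-out library, 249 of the values for single genes kept their direction and side of the threshold, 6 turned in sign, none of them past the threshold, and the cause was not tested. HSPA5 was 0.30 with quantile normalization and 0.047 with the replicate block, SLC7A5 0.069 with siLIX1L 1 and 2 averaged, and STC2 0.27 with quantile normalization, 0.0046 with a pseudocount of 0.1 FPKM and 0.014 with siLIX1L 1 and 2 averaged. The genes past the threshold in the whole table, 121 in limma, were 233 with quantile normalization, 1673 in DESeq2, and 0 without a minimum level (3407 at an unadjusted limma p under 0.05) or with siLIX1L 1 and 2 averaged (976). Of the stress genes, 5 passed in DESeq2, 0 without a minimum level, where DDIT4 had a limma adjusted p of 0.0943 and 7 genes an unadjusted p under 0.05, and 0 with siLIX1L 1 and 2 averaged (4 at an unadjusted p under 0.05). Leaving out 1 library gave 0 to 1650 genes in all and 0 to 11 of the stress genes, the 0 without any 1 siLIX1L library. It turned the sign of 19 genes, and the log2 differences ran from -0.19 to 0.10 for HSPA5, -1.18 to 0.20 for HSP90B1, -0.77 to 0.34 for SDF2L1, -0.63 to 0.072 for PDIA4, -0.00058 to 0.19 for PDIA6 and -0.60 to 0.23 for CRELD2, from -1.82 to 1.02 for PSAT1, -0.91 to 0.16 for SHMT2, -1.81 to 0.27 for MTHFD2, -0.43 to 1.24 for SLC7A11, -1.31 to 0.99 for SLC7A5 and -1.71 to 0.54 for SLC3A2, and from -1.66 to 0.22 for TRIB3, -2.22 to 0.29 for PPP1R15A, -3.43 to 0.40 for CHAC1, -0.86 to 0.19 for SESN2 and -1.26 to 1.25 for STC2. For ASNS and PSPH, tested in edgeR, the range was -2.73 to 0.38 and -2.14 to 0.43.

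The replicate numbers do not pair the samples by any label, and deviations of same-numbered libraries correlated at -0.105 and -0.122 over genes. With the replicate number as a block, limma called 94 genes, 21 higher and 73 lower, and 1 stress gene, DDIT4 (log2 difference -1.43, adjusted p = 0.0346). Depth limits ASNS most, with 11 reads in its lowest library. With 2 controls that differ widely in these genes, a difference smaller than their gap could not be told from it.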
